A study of Rattus norvegicus with 36 samples.

Results

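Regional genes of the head, eye and limb were followed in extraocular and leg muscle of the rat over the first weeks after birth. The set holds 8 genes of 4736 with a probe set of their own: Alx1, Pax6, Mia, Cyp1b1, Meox2, Msx2, Dlx5 and Pitx3. Their 12 probe sets are those annotated to exactly 1 of these symbols. The 8 genes were chosen from measured levels over the same 12 groups of muscle and age, including how many arrays lay at a floor of 100 intensity units. The differences between these groups are therefore given as descriptions with their standard errors and without a test. Near the floor, the closest single values of the 12 probe sets were 100.7 above it and 97.3 below it, both of Cyp1b1 probe sets in leg.

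The extraocular muscles (EOM) move the eye, and the leg sample held gastrocnemius and soleus of the hindlimb. Total RNA of EOM and of leg was hybridised to Affymetrix RG-U34A arrays at postnatal days 0, 7, 14, 21, 28 and 45, with 3 arrays for each muscle and age and 36 in all. The labels name no strain, treatment or sex and do not say that replicates came from separate animals, so the errors and p-values cover the variation among these arrays, which may be technical. Array medians ranged from 418.7 to 652.2 units, the share of an array's probe sets that did not exceed the floor was 9.92% to 23.48%, and arrays of a group correlated at 0.877 to 0.953. Precision is limited by the 3 arrays per group. The EOM myosin Myh13 read 16469, 17501 and 35126 in EOM at day 45, against 409.6, 1147 and 104 in leg.

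The muscles that move the eye form in head mesoderm, and their connective tissue comes largely from cranial neural crest, whereas limb muscle comes from the somites. Homeobox factors mark these regions. Alx1 marks the mesenchyme of the face and around the eye, Pax6 the eye and the epithelia that arise beside it, and Meox2 the somites and, in the mouse, the limb muscle made from them. Cyp1b1 encodes a cytochrome P450 that is induced by the aryl hydrocarbon receptor and whose loss in humans causes congenital glaucoma. Mia is a small protein secreted by cartilage and by melanoma cells.

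The 250 bases before the start site are shown for the 4 genes that were high in EOM and for Meox2, which was high in leg, because these genes carry the contrast between the muscles. Sequences are from RefSeq, build GRCr8, 5′ to 3′ on the strand of the gene. They cover chr7:40063779-40064028 (- strand) for Alx1, chr3:112590346-112590595 (+ strand) for Pax6, chr1:91603020-91603269 (- strand) for Mia, chr6:21094315-21094564 (+ strand) for Cyp1b1 and chr6:59583775-59584024 (+ strand) for Meox2. The table gives 1 start per gene, which for Pax6 and Cyp1b1 lies inside the annotated span of the gene. Capitals mark TAAT, the core bound by homeodomains, and GCGTG, the core bound by the aryl hydrocarbon receptor, searched on both strands, so that ATTA and CACGC are the same motifs read on the other strand.
Alx1: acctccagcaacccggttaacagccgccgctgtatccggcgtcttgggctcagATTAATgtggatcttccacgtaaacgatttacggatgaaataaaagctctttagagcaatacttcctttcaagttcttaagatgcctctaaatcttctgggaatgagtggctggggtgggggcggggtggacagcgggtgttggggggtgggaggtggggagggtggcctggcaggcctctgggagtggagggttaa
Pax6: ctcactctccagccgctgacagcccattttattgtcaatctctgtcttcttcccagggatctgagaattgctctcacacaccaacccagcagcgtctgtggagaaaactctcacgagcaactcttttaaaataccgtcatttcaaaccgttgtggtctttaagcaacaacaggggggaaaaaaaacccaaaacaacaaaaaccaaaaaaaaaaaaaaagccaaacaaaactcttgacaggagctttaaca
Mia: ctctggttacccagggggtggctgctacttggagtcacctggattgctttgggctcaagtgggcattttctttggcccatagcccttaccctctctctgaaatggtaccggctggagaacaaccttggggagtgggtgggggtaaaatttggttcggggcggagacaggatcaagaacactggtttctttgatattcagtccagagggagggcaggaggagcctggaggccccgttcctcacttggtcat
Cyp1b1: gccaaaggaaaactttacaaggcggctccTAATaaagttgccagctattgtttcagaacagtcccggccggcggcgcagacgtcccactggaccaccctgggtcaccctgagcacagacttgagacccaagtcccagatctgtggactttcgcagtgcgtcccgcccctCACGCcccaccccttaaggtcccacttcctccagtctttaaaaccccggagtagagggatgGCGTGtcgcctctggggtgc
Meox2: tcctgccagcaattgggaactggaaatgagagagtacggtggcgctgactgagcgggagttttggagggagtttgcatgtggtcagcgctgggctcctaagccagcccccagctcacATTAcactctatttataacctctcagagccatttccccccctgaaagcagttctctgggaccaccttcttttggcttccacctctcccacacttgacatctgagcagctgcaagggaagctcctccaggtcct
Counted back from the start site, Alx1 holds overlapping matches to TAAT at -197 and -195, Cyp1b1 holds TAAT at -221 and GCGTG at -81 and -20, and Meox2 holds TAAT at -133. Neither motif occurs in the windows of Pax6 and Mia. Of 33469 rat promoters of the same length, 57.0% hold TAAT and 25.9% hold GCGTG. A match is a description of these letters and not a binding site. Of the other members, Pitx3 holds GCGTG at -202 and Msx2 holds neither, and Dlx5 has no entry in the table.

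Alx1 (probe set L14018_at, chr7:40044185-40063778) was bright in EOM at birth and absent above the floor in leg at every age. Its intensity in EOM was 2127, 2406 and 2167 at day 0, against 30.0, 23.2 and 31.2 in leg. The log2 difference, with values floored at 100, was 4.48 ± 0.37, at least 22.3-fold higher in EOM. At day 7 it read 137, 503 and 533 in EOM, against 23.0, 36.1 and 37.6 in leg, at least 3.32-fold higher. All EOM arrays lay above all leg arrays at both ages, and replicate 1 of EOM at day 7 was the low one. Leaving out 1 array gave day 7 log2 differences of 1.39 to 2.37, against 1.73 with all arrays. Later EOM values were 134, 78.9 and 150.2 at day 14, 32.4, 32.6 and 149.7 at day 21, 66.6, 236 and 269 at day 28 and 133, 120.3 and 129 at day 45. They stayed within 3 times the floor, and of 18 arrays a muscle 4 EOM arrays and 18 leg arrays lay at or under it. In whole muscle samples, fewer cells of a type and less RNA per cell cannot be told apart.

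Pax6 (S74393_s_at, chr3:112590034-112611771), the paired box factor of lens, retina and cornea, was seen in EOM at the start and the end of the series. It read 982, 1265 and 708 in EOM at day 0, against 12.2, 3.9 and 13.7 in leg, at least 9.58-fold higher (log2 3.26 ± 0.31). At day 7 it read 536, 509 and 189 in EOM, against 11.6, 3.1 and 2.0 in leg, at least 3.72-fold higher. It lay under the floor on every EOM array at days 14, 21 and 28, the highest of them at 13.6. At day 45 the EOM arrays read 177, 174 and 2.0, against 10.6, 13.0 and 7.3 in leg. Replicates 1 and 2 of EOM thus stood above the floor at that age and replicate 3 did not, so the muscles overlapped once values were floored. Over all ages 10 EOM arrays and 18 leg arrays of 18 lay at or under the floor.

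Mia (U67884_at, chr1:91601326-91603019) was bright in EOM at days 0 and 7. EOM arrays read 4759, 5089.9 and 4512 at day 0, against 152, 153 and 202 in leg, 28.5-fold higher (log2 4.84 ± 0.35). At day 7 they read 3389, 3373 and 1742, against 173, 78.5 and 164 in leg, at least 19.1-fold higher. The drop came between days 7 and 14, when EOM read 288, 142 and 165 and leg 93.8, 87.8 and 119.6. From day 14 on no EOM array was above 292.1. Over all ages 2 EOM arrays and 8 leg arrays of 18 lay at or under the floor. The arrays of the muscles did not overlap at days 14 and 28, with log2 differences of 0.83 ± 0.35 and 0.54 ± 0.35, and overlapped at days 21 and 45.

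Alx1, Pax6 and Mia passed the filter on low values, above 320.4 units on 3 or more arrays, through EOM arrays alone, so that a difference was built into their passing. The filter was met on 5, 5 and 6 EOM arrays and on 0 leg arrays. Of the Cyp1b1 probe sets, rc_AI176856_at met it on 18 EOM and 2 leg arrays, U09540_at on 17 and 2, and U09540_g_at on 17 and 0. Leg arrays would not have passed these 3, so that a difference was built into their passing as well. X83867cds_s_at met it on 7 EOM and 6 leg arrays.

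**Figure D1:**
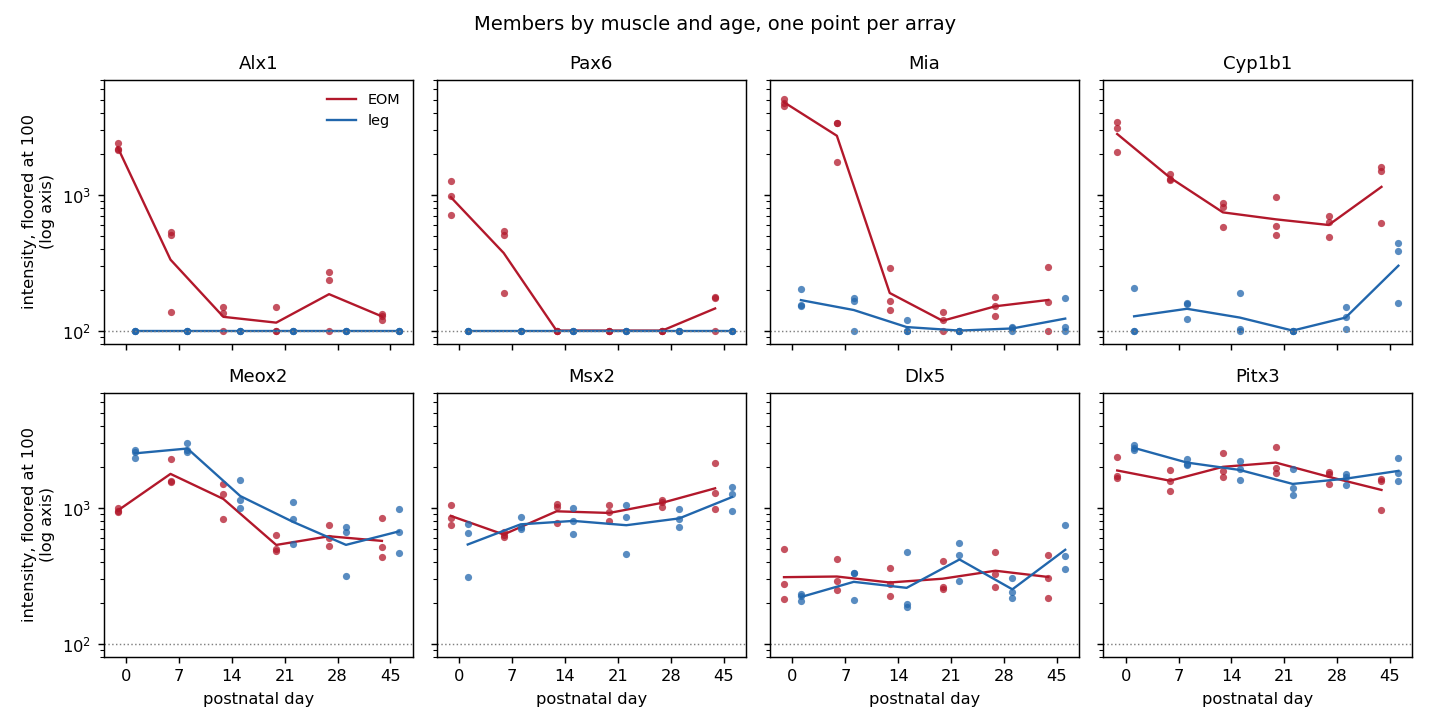
Intensity of the 8 genes (log axis, values floored at 100, dotted line) at each postnatal day (equally spaced on the axis), with EOM in red left of leg in blue, 1 point per array and lines through the means of the log2 values. Alx1, Pax6 and Mia are high in EOM at days 0 and 7 and near the floor afterwards, and Cyp1b1 stays above leg at all 6 ages.

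Cyp1b1 (rc_AI176856_at, chr6:21093927-21103091) was the member whose EOM arrays lay above all leg arrays at all 6 ages. EOM read 3080.4, 3442 and 2054 at day 0, against 82.7, 207 and 91.6 in leg, at least 21.9-fold higher (log2 4.45 ± 0.38). EOM read 1278, 1298 and 1428 at day 7, against 159, 122 and 156 in leg, 9.21-fold higher. At day 14 EOM read 581, 868 and 806 and leg 189, 78.4 and 103, at least 5.94-fold higher in EOM. The folds of days 0, 14 and 21 are bounds, since leg arrays lay at the floor, and have no order among them. At day 21 EOM read 503, 593 and 956 and leg 45.8, 27.4 and 66.9, at least 6.58-fold higher in EOM. At day 28 EOM read 700.1, 625 and 489 and leg 103, 150.3 and 125, 4.80-fold higher in EOM. At day 45 EOM read 1596, 1498 and 621 and leg 384, 439 and 160.3, 3.80-fold higher in EOM (log2 1.93 ± 0.38). The oldest leg arrays were brighter than most younger ones, and replicate 3 was the lowest of both muscles at day 45.

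Cyp1b1 has 4 probe sets, and over the 12 group means 3 of them correlated at 0.94 to 0.98. U09540_g_at lay higher in EOM on all arrays at all 6 ages, with log2 differences of 3.95, 2.73, 2.13, 2.03, 1.64 and 2.15 from the youngest to the oldest age. U09540_at gave 3.03, 2.15, 1.24, 2.21, 2.44 and 0.95, with overlap at days 14 and 45. The remaining probe set, X83867cds_s_at, read 262, 309.9 and 331 in EOM at day 0, against 305, 238 and 290.0 in leg. Its muscles overlapped at every age, its differences lay between -0.41 and 0.62, and it correlated at 0.35 to 0.42 with the others.

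**Figure D2:**
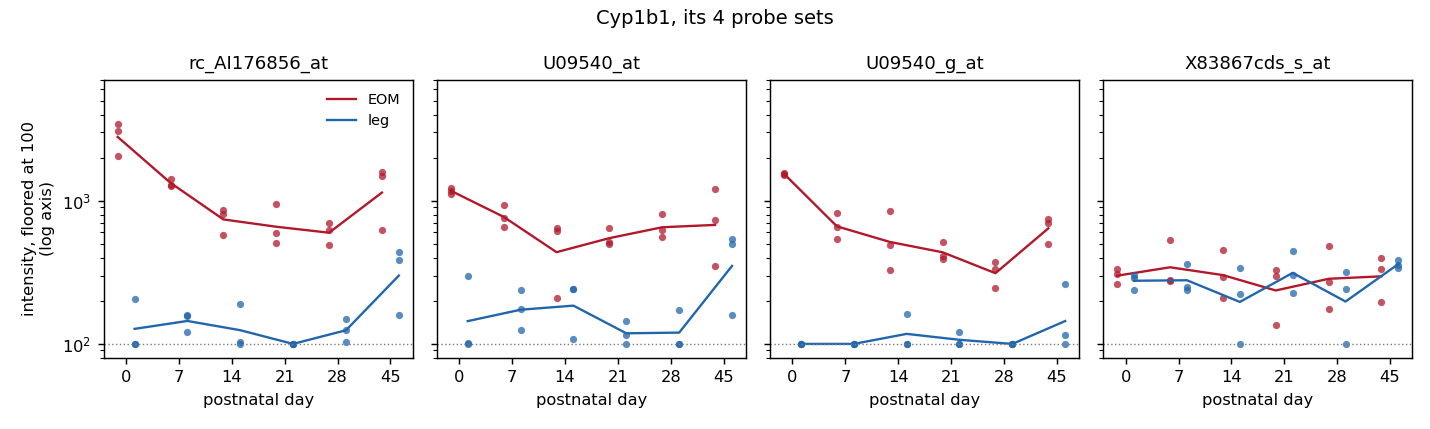
Intensity of the 4 Cyp1b1 probe sets (log axis, floored at 100, dotted line) by postnatal day (equally spaced), EOM in red left of leg in blue, 1 point per array, lines through the means of the log2 values. The first 3 correlate at 0.94 to 0.98, with overlap of the muscles in U09540_at at days 14 and 45, and in X83867cds_s_at the muscles overlap at each age.

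Meox2 (Z17223_at, chr6:59584025-59644722) went the other way at the youngest ages. EOM read 923, 940.5 and 990.3 at day 0, against 2570.0, 2326 and 2636 in leg, a log2 difference of -1.40 ± 0.31. EOM read 1572, 1546 and 2289 at day 7, against 2635, 2577 and 2973 in leg, a log2 difference of -0.62 ± 0.31. At these ages every leg array lay above every EOM array. The muscles overlapped at days 14, 21, 28 and 45, with differences of -0.07, -0.56, 0.21 and -0.23. The sign turned at day 14 without EOM replicate 1 or leg replicate 3 (0.17 and 0.12), and at days 28 and 45 without leg replicate 3 (-0.17 and 0.04). At day 45 EOM read 511, 840.2 and 430.3, against 663, 462 and 977 in leg.

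Pitx3 (AJ011005_at, chr1:254942550-254955325), a homeobox factor of the lens and of midbrain dopamine neurons, was bright on all 36 arrays, between 963.4 and 2894.5 units. At day 0 it read 1719, 1639.7 and 2345 in EOM, against 2727, 2894 and 2637 in leg, a log2 difference of -0.55 ± 0.22. At day 7 it read 1577, 1326 and 1880.1 in EOM, against 2065, 2103 and 2277 in leg, a difference of -0.44 ± 0.22. Leg lay above EOM on all arrays at both ages, and the muscles overlapped at the other 4 ages, with differences between -0.47 and 0.52.

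Msx2 (U12514_at, chr17:11102284-11107949), a homeobox factor of skull and limb buds, overlapped between the muscles at 4 of the 6 ages. At day 0 EOM read 749, 840.0 and 1045, against 763, 309 and 652 in leg, a log2 difference of 0.70 ± 0.30 with arrays that overlapped, and of 0.30 without leg replicate 2 and 0.95 without leg replicate 1. EOM read 614, 630.1 and 662 at day 7, against 695, 726 and 849 in leg, and 1104, 1017 and 1141 at day 28, against 726, 819.5 and 974 in leg. Leg was the higher at day 7 (-0.25 ± 0.30) and EOM at day 28 (0.38 ± 0.30), without overlap. Dlx5 (D31734_at, chr4:35965579-35969973), a distal-less factor of the pharyngeal arches and of bone, read between 185.6 and 751.6 on all arrays, and its muscles overlapped at each age. Its differences lay between -0.66 ± 0.39 at day 45 and 0.49 ± 0.39 at day 0. The second Dlx5 probe set, D31734_g_at, did not pass the filter, lay at or under the floor on 6 EOM and 7 leg arrays, and correlated with the first at 0.26.

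**Figure D3:**
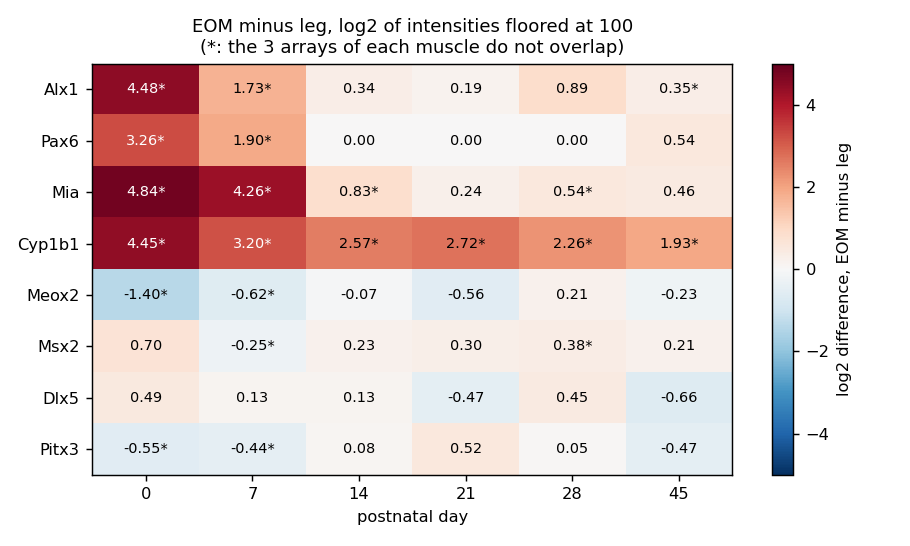
Log2 difference, EOM minus leg, of the 8 genes (rows) at each postnatal day (columns), with an asterisk where the 3 arrays of the muscles do not overlap. At days 0 and 7 the differences of Alx1, Pax6, Mia and Cyp1b1 lie between 1.73 and 4.84, as lower bounds where leg arrays lay at the floor, and Meox2 at day 0 lies at -1.40.

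Counted by age, all 3 EOM arrays lay above all 3 leg arrays for 4 of the 8 genes at day 0 and for the same 4 at day 7, Alx1, Pax6, Mia and Cyp1b1. The same held for 14.5% and 12.4% of the 6672 tested probe sets. The count was 2 at day 14 (Mia and Cyp1b1, 12.2% of probe sets), 1 at day 21 (Cyp1b1, 13.0%), 3 at day 28 (Mia, Cyp1b1 and Msx2, 15.6%) and 2 at day 45 (Alx1 and Cyp1b1, 11.1%). Leg lay above EOM for 2 genes at day 0 (Meox2 and Pitx3, 8.78% of probe sets) and 3 at day 7 (Meox2, Msx2 and Pitx3, 9.2%), and for 0 at days 14, 21, 28 and 45 (10.4%, 7.69%, 11.9% and 9.07%). Since the genes were chosen from these groups, nothing is read from counts above these shares. The day 7 counts were the same whichever array was left out, and the other counts with EOM above leg depended on single arrays. The day 0 count was 5 without EOM replicate 1 or 3 or leg replicate 1. Without EOM replicate 2 it was 4 at day 14 and 3 at day 21, and without leg replicate 3 it was 3 at day 14 and 2 at day 21. It was 4 at day 28 without EOM replicate 1 or 3 or leg replicate 1, and 3 at day 45 without EOM replicate 3. Leg lay above EOM for 1 gene at day 21 without EOM replicate 1 or 3 or leg replicate 2 or 3, and for 1 at day 45 without EOM replicate 2 or leg replicate 3.

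From birth to day 45 most of the 8 genes dimmed in EOM. The genes were chosen from levels over these same groups, so nothing is read from the age counts against the shares of probe sets. In EOM, all day 0 arrays lay above all day 45 arrays for 6 of 8 genes, all but Msx2 and Dlx5, against 23.2% of probe sets, and the opposite held for 0 (16.8%). The log2 change, day 45 minus day 0, was -4.83 ± 0.35 for Mia, -4.13 ± 0.37 for Alx1, -2.72 ± 0.31 for Pax6, -1.29 ± 0.38 for Cyp1b1, -0.74 ± 0.31 for Meox2 and -0.48 ± 0.22 for Pitx3. In leg, day 0 lay above day 45 for Meox2 (-1.91 ± 0.31) and Pitx3 (-0.56 ± 0.22), 2 of 8 against 22.6% of probe sets. Day 45 lay above day 0 in leg for Msx2 (1.16 ± 0.30) and Dlx5 (1.15 ± 0.39), 2 of 8 against 22.3%. By rc_AI176856_at, Cyp1b1 was thus dimmer in EOM at day 45 than at day 0, although its log2 mean was 9.22 at day 28 and 10.16 at day 45. Its leg change was 1.24 ± 0.38 with arrays that overlapped. In EOM the other probe sets changed by -1.27 ± 0.33 (U09540_g_at), -0.79 ± 0.49 (U09540_at) and -0.01 ± 0.46 (X83867cds_s_at), the last 2 with overlap.

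Alx1, Pax6 and Mia shared their course over the 12 group means, with correlations of 0.96 (Alx1 and Pax6), 0.91 (Alx1 and Mia) and 0.97 (Pax6 and Mia), and each correlated with Cyp1b1 at 0.73 to 0.74. Meox2 correlated with Msx2 at -0.73 and with Pitx3 at 0.56. These 12 points share arrays and ages, so the correlations are descriptions. Among 3881 other genes, ranked by the same correlation, the closest to Pax6 were the simple epithelial keratin Krt18 (0.995), the galectin of stratified epithelia Lgals7 (0.975) and Ptprz1 (0.972). Krt18 and Lgals7 were also closest to Alx1 (0.941 and 0.933, with Limk2 at 0.923). The closest to Mia were the zinc finger factor Gata6 (0.981), Ptprz1 (0.967) and Krt18 (0.967). Cyp1b1 was closest to the peptidase Mme (0.955), the neurofilament Nefm (0.952) and the prostaglandin synthase Ptgds (0.941). Meox2 was closest to Armc6 (0.918), the cartilage collagen Col11a1 (0.907) and the lamin Lmnb1 (0.906). The nearest genes were Pccb (0.958), Gsta1 (0.952) and Acox2 (0.897) for Msx2, Cyth1 (0.862), Synpo (0.849) and Sult2a2 (0.783) for Dlx5, and Grip2 (0.871), Dnttip1 (0.771) and Krt10 (0.771) for Pitx3.

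Most markers of gland and surface epithelium were higher in EOM at days 0 and 7, as were Alx1, Pax6, Mia and Cyp1b1. By rc_AI176856_at, Cyp1b1 was higher in EOM at the later ages too. Of 16 tested markers, 13 were higher in EOM at day 0 and 2 lower by limma's moderated test with Benjamini-Hochberg adjustment over all probe sets, against 3.93% and 2.4% of probe sets. At day 7, 10 were higher and 0 lower, against 3.31% and 1.63%. Of these, 12 at day 0 and 9 at day 7 are markers with at least 1 array above the filter in each muscle. That is looser than the 3 arrays needed to pass, so it does not remove every marker that passed through 1 muscle. Krt18 passed the filter through EOM arrays alone, so that its difference was built into its passing. The same holds for Krt19, Lgals7 and Ctse, with 1, 2 and 1 leg arrays above the filter, short of the 3 needed. Krt1, with 6 leg arrays and 1 EOM array above it, passed in the same way through leg. No count without these markers was made, so the counts of this list are descriptions. Krt18 read 3667, 3999.5 and 3669 in EOM at day 0, against 34, 50.3 and 138 in leg (log2 5.08 ± 0.38). Krt1 and Krt10 went the other way at day 0. Krt1 read 255, 446 and 96.3 in EOM, against 1172, 1686.5 and 2743 in leg. Krt10 read 538.5, 480 and 435 in EOM, against 1636, 2100 and 3610 in leg. The summed intensity of 17 markers was 52357, 49886 and 39107 on the EOM arrays of day 0 and 32494, 35964 and 16534 on those of day 7. From day 14 on it lay between 6314 and 23824 in EOM, and in leg it lay between 4986 and 14215 over all ages. At day 21 the EOM sums were 21147, 9846 and 23824. On these arrays Lcn2 of that list read 3545, 687.9 and 5597.8, high where the sum was high. Krt18 read 50.2, 107.7 and 102.3 there, Krt8 104, 133.9 and 92.6, and Lgals7 43.3, 192.4 and 61.8. Alx1, Pax6 and Mia lay near or under the floor at that age as well. Replicate 3 of EOM at day 7 was the lowest of its group for the sum, for Krt18 (1247, 1395 and 586), for Pax6 and for Mia. It was the highest for Alx1, and for Cyp1b1 by every probe set but X83867cds_s_at. At day 45 the EOM sums were 16634, 18601 and 8385, and replicate 3 was again the lowest for Krt18 (249, 596 and 111), Pax6 and Mia. It was the lowest also for Cyp1b1 by rc_AI176856_at and U09540_g_at. By U09540_at (739.1, 351.5 and 1199.5) and X83867cds_s_at (334.7, 197.1 and 395.5) it was the highest for Cyp1b1. None of the 17 markers was at or under the floor on all 36 arrays. The part of epithelial cells, or of the level of an array as a whole, in the values of the members was not tested.

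**Figure D4:**
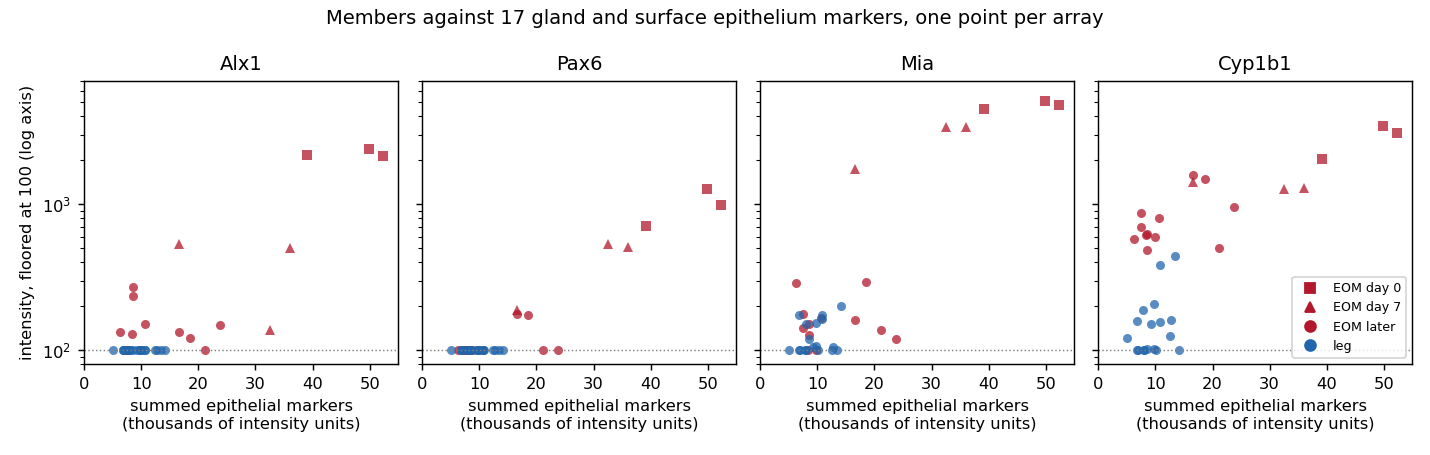
Intensity of Alx1, Pax6, Mia and Cyp1b1 (log axis, floored at 100, dotted line) against the summed intensity of 17 gland and surface epithelium markers, 1 point per array, EOM in red (squares day 0, triangles day 7, circles later) and leg in blue circles. The 3 EOM arrays of day 0 hold the 3 highest sums, 39107 to 52357, and the highest levels of Alx1, Pax6, Mia and Cyp1b1 (rc_AI176856_at).

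Sox10, a factor of neural crest and Schwann cells, read 2567, 2135 and 1873 in EOM at day 0, against 48.5, 228 and 91.7 in leg (log2 4.04 ± 0.42), and it too passed the filter through EOM arrays alone. Its EOM arrays read 2103, 2449.5 and 976 at day 7 and 261, 327 and 45.7 at day 45, with replicate 3 the lowest at both ages, as for Pax6 and Mia. Of 10 Schwann cell markers, Sox10 among them, 4 were higher and 1 lower at day 0, against 3.93% and 2.4% of probe sets. At each later age 5 to 7 were higher, against 2.61% to 7.64% of probe sets, and 0 lower, against 0.555% to 4.18%. The number past the test was 1 at day 0 without EOM replicate 1 or 2, 2 without leg replicate 1 or 2 and 3 without leg replicate 3. It was 2 at day 7 without leg replicate 1 and 3 without EOM replicate 1 or 3 or leg replicate 2, and at day 21 it was 2 without EOM replicate 3 and 3 without leg replicate 1. Of 9 cartilage and bone markers, 0 passed at day 0, against 3.93% of probe sets higher and 2.4% lower (4 at an unadjusted p under 0.05). Only Col2a1 at day 7 (-1.37 ± 0.41, adjusted p = 0.0487) and Comp at day 14 (-1.47 ± 0.42) passed later, both lower in EOM. Comp had 1 EOM array and 12 leg arrays above the filter, so that a difference was built into its passing. Leaving out any 1 array of day 14 left 0 markers past the test, as did leaving out any 1 EOM array or leg replicate 3 at day 7, while 1 passed at day 0 without EOM replicate 3 and 1 at day 21 without leg replicate 3. Phex was at the floor on all arrays. The list's summed intensity at day 0 was 10344 to 14498 in EOM and 14079 to 15676 in leg. Of 11 markers of retina, lens and cornea, 0 passed at days 0, 7 and 14 (0 at an unadjusted p under 0.05 at day 0). At those ages 2.61% to 3.93% of probe sets were higher and 1.63% to 2.4% lower. Cryaa, Crybb2, Crybb3, Mip and Aldh3a1 of this list lay above the filter on all 18 leg arrays. At days 21, 28 and 45, 0 were lower, against 0.555% to 4.18% of probe sets, and 1, 2 and 1 higher, against 3.48%, 7.64% and 6.89%. Those were Myoc at day 21 (1.36 ± 0.33) and day 28 (2.11 ± 0.33), Sag at day 28 (1.47 ± 0.42) and Aldh3a1 at day 45 (0.85 ± 0.27). None passed at day 21 without EOM replicate 3 or leg replicate 1 or 2, nor at day 45 without EOM replicate 1 or 2 or leg replicate 1 or 3, and 1 passed at day 28 without EOM replicate 1 or leg replicate 1 or 3. Of 12 muscle markers, 1 was higher at each age, against 2.61% to 7.64% of probe sets, and 3, 3, 1, 0, 4 and 3 were lower from day 0 to day 45, against 0.555% to 4.18%. Leaving out 1 array left 1 to 3 muscle markers past the test at day 0, 1 to 2 at day 7, 1 to 2 at day 14, 1 to 3 at day 21, 3 to 5 at day 28 and 2 to 4 at day 45. Only Kit of the pigment cell markers is on the array, and it did not pass at any age.

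Of the other regional genes of head, eye, limb and trunk, Nr2f1 and Maf passed the test between the muscles at 1 or more ages. Hoxa5 and Lhx2 were also called but met the filter on leg arrays alone, so that a difference was built into their passing. Their calls are kept in the counts below, and nothing is read from them. Hoxa5 accounts for 1 of the 2 lower calls at day 14 and Lhx2 for 1 of the 2 at day 28. Of 31 on the array 21 were tested, and 1 was higher and 0 lower in EOM at day 0 (3.93% and 2.4% of probe sets), 1 higher and 1 lower at day 7 (3.31% and 1.63%), and 1 higher and 2 lower at day 14 (2.61% and 2.31% of probe sets). At day 21, 0 passed limma's test in either direction (3.48% and 0.555% of probe sets; 3 genes at an unadjusted p under 0.05). At day 28, 1 was higher and 2 lower (7.64% and 4.18%), and at day 45, 1 was higher and 1 lower (6.89% and 3.67%). Nothing particular to the list is read from these counts. The list's median difference lay between -0.08 and 0.26 over the 6 ages, and that of all probe sets between 0.01 and 0.08. With the replicate number as a replicate block, Hoxa5, which met the filter on leg arrays alone, passed also at day 21 (-1.29).

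The gene higher at 5 of the 6 ages was Nr2f1, the nuclear receptor COUP-TFI of neural and eye development. EOM read 4751, 5426 and 2436 at day 0, against 342, 453 and 537 in leg (log2 3.19 ± 0.36, adjusted p = 2.79e-07). At day 45 EOM read 1478, 1599.5 and 577, against 393, 365 and 428 in leg (1.49 ± 0.36, adjusted p = 0.00698). Its arrays did not overlap at either age, and its differences at days 7, 14 and 28 were 1.88, 1.72 and 1.12 with adjusted p of 0.00109, 0.0031 and 0.0419. At day 21 it was 0.95 ± 0.36 with an adjusted p of 0.157. The day 28 call was lost without EOM replicate 1, 2 or 3 or leg replicate 2 or 3 (adjusted p of 0.0553 to 0.176), and the day 45 call without EOM replicate 2 (adjusted p = 0.0582). The day 28 call was lost also with quantile normalization (0.0665) and with no filter (0.0583). With only the arrays of the compared groups the calls at days 14, 28 and 45 were lost (0.0507, 0.0949 and 0.15).

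The other calls were lower in EOM. Maf, a leucine zipper factor of the lens that is also made in muscle, read 2112, 2465 and 2774 in EOM at day 14, against 5288, 5261 and 4576 in leg (-1.05 ± 0.16, adjusted p = 3.84e-05). It was lower also at days 7 (-0.69), 28 (-1.0) and 45 (-0.60), with adjusted p of 0.00569, 4.11e-05 and 0.0112. Averaged over all its probe sets it did not pass at days 7 and 14 (adjusted p = 0.143 and 0.187). The day 7 call was lost without EOM replicate 2 or leg replicate 1 (0.06 and 0.0652), and the day 45 call without leg replicate 2 (0.0694), and both with only the compared groups (0.118 and 0.163). Hoxa5 and Lhx2 passed the filter through leg arrays alone, 3 and 4 of them, so that a difference was built into their passing, and their values are given without a test. Hoxa5, a trunk homeobox gene, read 72.4, 59.5 and 52.7 in EOM at day 14, against 221, 278 and 453 in leg, at least 3.03-fold lower. The LIM factor Lhx2 read 38.3, 67.6 and 95.4 in EOM at day 28, against 381, 352 and 238 in leg, at least 3.17-fold lower. The EOM arrays of both lay under the floor at those ages.

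**Figure D5:**
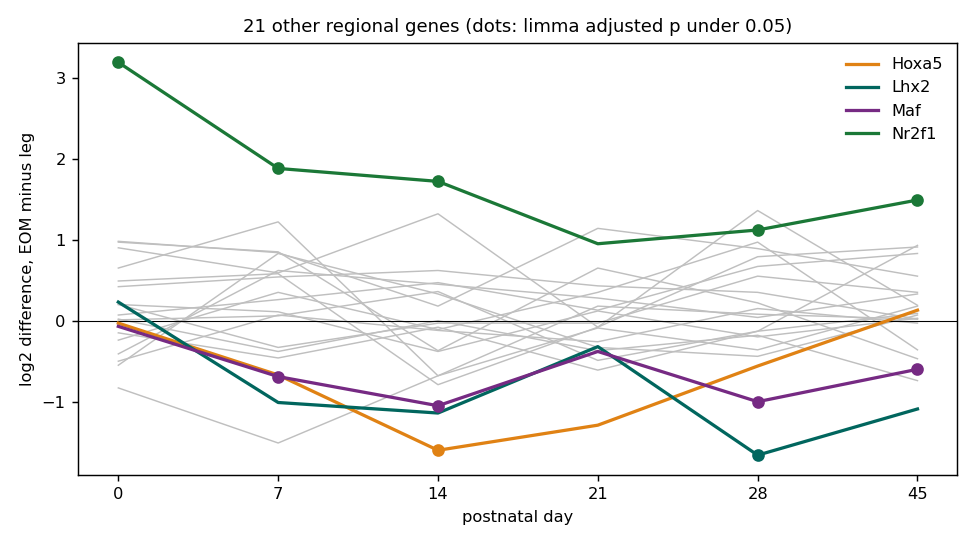
Log2 difference, EOM minus leg, of the 21 other regional genes at each postnatal day (equally spaced), dots marking adjusted p under 0.05 in limma's test. Nr2f1 is called at 5 ages, with 3.19 at day 0, Maf at 4, Hoxa5 at day 14 and Lhx2 at day 28, the last 2 having passed the filter through leg arrays alone.

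With age, 1 of the 21 rose and 2 fell in EOM (12.9% and 18.4% of probe sets), Isl1 (1.03 ± 0.35, adjusted p = 0.0241), Nr2f1 (-1.84 ± 0.36, adjusted p = 0.000211) and the SoxC factor Sox11 (-2.74 ± 0.52, adjusted p = 0.000117), day 45 against day 0. The Isl1 call was lost without EOM day 0 replicate 2 or 3 or day 45 replicate 2 (adjusted p of 0.0695 to 0.139), and with only the compared groups (0.119). In leg 2 rose and 2 fell (14.4% and 18.5% of probe sets). The rises were Shh, a secreted signal of the limb bud (1.20 ± 0.26, adjusted p = 0.000577), and Maf (0.46 ± 0.16, adjusted p = 0.0216). The falls were Zeb1 (-1.83 ± 0.46, adjusted p = 0.00225) and Bmp4 (-1.60 ± 0.47, adjusted p = 0.00931). With the mean of all probe sets Zeb1 was lost (-0.86, adjusted p = 0.0608). The leg call of Maf was lost without leg day 0 replicate 1 or 3 or day 45 replicate 2 (0.082 to 0.115), and with only the compared groups (0.108). For the difference between these changes, EOM minus leg, 0 of 21 passed limma's test (2.25% of probe sets higher and 1.45% lower; 4 genes at an unadjusted p under 0.05). Nr2f1 came closest (-1.70 ± 0.52, adjusted p = 0.0609), and passed without EOM day 0 replicate 3 or EOM day 45 replicate 1 or 2 (adjusted p of 0.0221 to 0.0487).

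Genes of retinoid metabolism and of the aryl hydrocarbon receptor, which controls Cyp1b1, were set beside it. Of 15 tested, 1 was higher and 1 lower in EOM at day 0 (3.93% and 2.4% of probe sets), 0 passed limma's test at days 7, 14 and 21 (3, 3 and 1 at an unadjusted p under 0.05), 1 was lower at day 28 (4.18%) and 1 higher at day 45 (6.89%). The receptor Ahr read 323, 254 and 256 in EOM at day 0, against 176, 228 and 303 in leg, and lay between 176.0 and 470.4 on all arrays. Cyp1a1, another target of that receptor, lay at or under the floor on at least 2 of 3 arrays in 11 of the 12 groups. Aldh1a1, a retinaldehyde dehydrogenase, read 2671, 2622 and 1964 in EOM at day 0, against 1233, 966 and 1075 in leg (1.14 ± 0.21, adjusted p = 0.000317). Rbp4, the plasma carrier of retinol, was the gene lower at day 0 (-1.71 ± 0.38, adjusted p = 0.00296) and the gene higher at day 45 (1.28 ± 0.38, adjusted p = 0.0247). With only the arrays of the compared groups both calls were lost (0.0859 and 0.305), and the day 45 call also without any 1 EOM array or leg replicate 1 or 2 (0.051 to 0.167). Rxrg, a retinoid X receptor, was lower at day 28 (-0.97 ± 0.26, adjusted p = 0.0103), and 0 of the list passed at that age without EOM replicate 3.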

How the data were processed

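Each array's deposited values are probe set intensity values on a linear scale, made by the authors with the Affymetrix standard protocol, per the labels. All arrays had the same trimmed mean of 1499.8, so the deposited values had been scaled. The software that summarised the probes was not given in the sources used here. Values were floored at 100, which makes differences near it too small, and turned to log2. The 59 control probe sets were left out, and 6672 of 8799 were tested, those above the 40th percentile of all values (320.4) on 3 or more arrays. In the platform annotation of 2016, 7006 probe sets carry 1 symbol, 308 carry several and 1426 carry none. Of the 7006, 6985 matched RefSeq genes by identifier (GRCr8, used for locations and promoters).

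The 12 group means were fitted with limma 3.58.1 in R 4.3.3 (trended prior variance, 24 residual degrees of freedom, Benjamini-Hochberg over all tested probe sets, threshold 0.05), and the fit was tested on simulated data. Standard errors come from that fit over all 36 arrays. A fold is 2 to the power of the difference between mean log2 values, written "at least" where an array of the dimmer group lay at the floor. A gene is represented by its brightest probe set. Named are all members, from each list up to 4 genes past the threshold (or 2 where none passed), and the 3 genes closest to each member. Members and lists were chosen with earlier results of these data known.

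Groups and replicate numbers came from the labels. Deviations of same-numbered EOM and leg arrays correlated above 0.1 for every number at day 7 (0.131 to 0.295), day 14 (0.105 to 0.164) and day 21 (0.101 to 0.369), but not at the other ages. By this measure, and without word of it in the labels, same-numbered arrays may be paired at those 3 ages. No 2 arrays held identical values. Alternatives were other floors, scalings, filters and probe set rules, no variance trend, a replicate block, the compared groups alone and leaving out each array.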

Additional observations from a re-analysis of the deposited data

Results flagged for a closer look

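By the interaction test of the limma fit, 12 genes of the marker and retinoid lists had a day 45 minus day 0 change in EOM that differed from that in leg, and 0 of the 21 tested other regional genes did (4 at an unadjusted p under 0.05). Over all probe sets 2.25% were higher and 1.45% lower. Tested were 16 gland and surface epithelium markers (1 higher, 7 lower), 10 Schwann cell markers (1 and 1), 12 muscle markers (1 and 0) and 15 retinoid list genes (1 and 0). Of 9 cartilage and bone markers, 11 markers of retina, lens and cornea and 1 pigment cell marker, 0 passed. Of the gland and surface epithelium markers, the EOM change lay below the leg change by log2 differences of -4.73 for Tspan8, -4.44 for Lgals7, -3.94 for Lcn2, -3.81 for Krt19, -3.73 for Krt18, -3.33 for Epcam and -2.97 for Krt8, and above it by 3.21 for Krt1. For the Schwann cell markers the differences were -3.01 for Sox10 and 1.76 for Pmp22, and for the EOM myosin Myh13 the difference was 6.19. Krt18 and Sox10 passed the filter on low values through EOM arrays alone. Krt19 and Lgals7 had 1 and 2 leg arrays above it, short of the 3 needed, and Krt1 had 1 EOM array above it. A difference was thus built into the passing of all of these, and they are kept in the 12.

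Rbp4, which carries retinol in the blood, was the 1 gene of the retinoid list to pass, and is given per array because of that result. EOM read 409, 445 and 455 at day 45 and 188, 287 and 366 at day 0, and leg read 119, 119 and 409 at day 45 and 823, 1426 and 589.8 at day 0. The day 45 minus day 0 change in EOM exceeded that in leg by 2.99 ± 0.53 log2 units (adjusted p = 0.000658). The leg change was -2.30 ± 0.38 (adjusted p = 1.5e-05). The day 45 difference between the muscles was lost without any 1 of the EOM arrays of that day or leg replicate 1 or 2 (adjusted p of 0.051 to 0.167), with the mean of all probe sets (0.0619) and with only the compared groups (0.305).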

How the results depend on the processing

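Under the alternatives no called difference of a named gene reversed. Of the member differences, 18 recomputed values in 9 comparisons of Meox2, Msx2, Dlx5 and Pitx3 changed sign, 15 of them without 1 array and 3 under other settings (Pitx3 at day 28 with median scaling, -0.04, and quantile normalization, -0.07, against 0.05, and Dlx5 at day 7 with the mean of all probe sets, -0.05 against 0.13), and all had a reported size of 0.3 log2 units or less. In all, 540 of 576 recomputed member differences stayed within the spread between replicates, and 36 moved beyond it. Of 371 recomputed tests of named genes, 334 kept their call and 37 lost it. Counts of members with EOM above leg were 2 at day 21 with a floor of 50 and 2 with an offset of 50 and no floor, and 1 at day 45 with arrays scaled to the same median and 1 with quantile normalization. Leaving out 1 array gave 2 to 4 at day 14 and 1 to 3 at day 21, and 0 to 1 with leg above EOM at days 21 and 45. Of the other regional genes, 1 passed at day 7 with the mean of all probe sets and 1 with only the arrays compared, and 1 to 3 without 1 array. With only the arrays compared, 1 passed at day 14 and 0 at day 45, where quantile normalization gave 4. At day 21, 1 passed with a floor of 50, median scaling, quantile normalization, no filter, no variance trend or the replicate block. It was Hoxa5 in each, which met the main filter on leg arrays alone. In EOM with age, 1 passed with the 60th percentile filter (793.5), and for the difference of the changes 1 passed with the offset of 50, quantile normalization or that filter, Nr2f1 in each, and 0 to 1 without 1 array. The replicate block added Zeb1 in EOM with age (adjusted p = 0.0445). The causes were not tested. Alternatives for the counts with leg above EOM, for the marker and retinoid lists and for Rbp4 were chosen after seeing the data.

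Scaling to the same median gave 200 probe sets higher and 203 lower at day 0, against 262 and 160 in the deposited scaling, with the median of all probe sets shifted by -0.123. At day 21 it gave 130 and 56, against 232 and 37, with a shift of -0.13. For EOM with age the median moved by 0.107. With the compared arrays alone, day 21 had 22 higher and 0 lower. Values near the floor of 100 carry no order, which limits Alx1, Pax6 and Mia after day 7.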
